A study of Mus musculus with 4 samples.

Results

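The miR-130 and miR-301 family was followed with 4 assays, those of mmu-miR-130a, mmu-miR-130b, mmu-miR-301a and mmu-miR-301b, of 750 microRNA (miRNA) assays read in each library. The 4 were chosen by name and come from 3 places in the mouse genome. Lung RNA came from 4 groups of mice with 1 library each. Neonates entered room air or 95% oxygen (hyperoxia) within 12 h of birth, stayed there for 72 h and were collected at day 3. Adults aged 2 months had the same 72 h in either atmosphere. Saline was passed through the pulmonary artery before the right lung was removed. As RNA came from lung tissue and not from sorted cells, each library is a mixture of lung cell types. The labels name no strain or sex, and leave unsaid if each library holds 1 animal or a pool. Differences between 2 libraries therefore have no replicate check. Any p-value below rests on how unlike the age differences were in the 2 atmospheres, pooled over assays, which may be technical. No p-value measures a spread between replicates.

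A miRNA is a short RNA that guides repression of messenger RNAs, mainly through its seed, bases 2 to 8. miRNAs with the same seed form a family with largely shared targets. Members of this family are known from endothelial and smooth muscle cells of lung vessels. miR-130a is known to promote growth of new vessels by repressing the homeobox factors GAX and HOXA5. Together the family is known to repress PPARG, a nuclear receptor that restrains growth of vessel wall cells, and to rise in pulmonary hypertension. miR-204 and the clustered pair miR-424 (miR-322 in mouse) and miR-503 are reported to lie downstream of it.

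The sequences show what the members share and where they differ. They are from RefSeq (build GRCm38.p6), written 5′ to 3′ with the seed in capitals. Mature sequences of 3 of the 4 members were matched by name, and miR-721 is added as the only other assay on the cards with this seed.
miR-130a: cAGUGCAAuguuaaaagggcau
miR-130b: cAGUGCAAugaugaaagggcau
miR-301a: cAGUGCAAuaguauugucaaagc
miR-721: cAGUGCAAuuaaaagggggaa
All 4 sequences shown carry the seed AGUGCAA. The mature miR-130a and miR-130b were equal at 20 of 22 positions compared from the 5′ end. miR-301a matched miR-130a at 12 of 22 positions and miR-130b at 11, with the mismatches all beyond the first 9 bases. This seed was found in 7 of the 1679 mature mouse miRNAs listed, a list that holds no mature miR-301b.

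Mir130a lies at chr2:84741115-84741178 on the minus strand, in no other gene of the RefSeq table. The hairpin gene of miR-301a lies at chr11:87113004-87113089 on the plus strand, within the span of the protein-coding gene Ska2, a factor of the kinetochore. Mir130b (chr16:17124061-17124142) and Mir301b (chr16:17124400-17124496) lie 257 bases apart on the minus strand, within the span of the protein-coding gene 2610318N02Rik. The table gives no exons, so exonic and intronic positions were not told apart. The hairpins of the chromosome 16 pair are shown because the pair is neighbouring and was read by separate assays, with capitals marking the seed letters.
Mir130b: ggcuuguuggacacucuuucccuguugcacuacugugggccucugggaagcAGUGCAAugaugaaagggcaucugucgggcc
Mir301b: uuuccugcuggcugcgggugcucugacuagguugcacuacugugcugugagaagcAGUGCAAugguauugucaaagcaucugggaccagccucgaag

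Levels below are log2 values against the small nucleolar RNA snoRNA202 of the same card, higher for more RNA. They come from the threshold cycle (Ct) of quantitative PCR, and a difference of 1 is 2-fold only at perfect amplification. Each library covers 2 cards, and all 4 members sit on the first. All 4 were detected (Ct of 35 or below) in every library, with Ct between 17.43 and 22.88. Of all 750 assays, 468 to 507 were detected per library, and 426 in all 4 libraries. Assays differ in efficiency, so the level of a member is set only against itself in another library. The technical SD of a difference was estimated from 4 control RNAs read on both cards (U6, snoRNA135, U87 and Y1). For oxygen it was 0.26 log2 in neonates and 0.33 in adults. For age it was larger, 0.65 between the room air libraries and 0.95 between the hyperoxia libraries. Markers of the cells a lung holds were all detected in every library, except miR-122 of liver, which was not detected in neonatal room air. The endothelial markers miR-126 and miR-126-5p had a summed level of 3.13 to 3.66 log2. That sum mostly follows miR-126, which was at 3.07 in neonatal room air where miR-126-5p was at -0.19.

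Against snoRNA202 every member was lower in both adult libraries than in both neonatal libraries, whereas with U6 as the reference the fitted age effects of all 4 lay above 0. Of all assays detected in every library, 55.6% had both adult libraries below both neonatal ones. On the snoRNA202 scale miR-301a had the largest difference and miR-130a the smallest in either atmosphere, whereas with U6 miR-130a was highest (1.60 in room air and 1.73 in hyperoxia) and miR-301a nearest to 0 (0.07 and 0.16). Fewer cells of a type and less RNA per cell cannot be told apart in such lung extracts.

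miR-301a, the member in Ska2, stood at -4.94 (room air) and -4.73 (hyperoxia) in neonates and at -7.52 and -7.55 in adults. The neonatal libraries were high, the adult libraries were low, and within each age the libraries were closer than the technical SD. In room air the adult was lower by 5.96-fold (-2.58 log2), and in hyperoxia by 7.06-fold (-2.82). In an additive model of age and oxygen over all assays detected in every library, miR-301a fell with age, with an effect of -2.70 ± 0.30 log2 (SE; adjusted p = 0.0148, limma with Benjamini-Hochberg adjustment). With U6 the fitted effect was 0.11.

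miR-130b, of the chromosome 16 pair, had levels of -7.12, -7.39, -9.45 and -9.72 in the same order. Its adult libraries were again the low ones, by -2.32 log2 in room air and -2.33 in hyperoxia, and it fell with age, with a fitted effect of -2.33 ± 0.30 (SE; limma, adjusted p = 0.0193), against 0.48 with U6. Its neighbour miR-301b was at -4.44, -3.99, -5.91 and -6.43. Here the gap between ages differed with the atmosphere, at -1.47 in room air and -2.43 in hyperoxia, with the hyperoxia library the higher one in neonates and the lower one in adults. miR-301b fell with age, with a fitted effect of -1.95 ± 0.40 (SE; limma, adjusted p = 0.0452), with 0.86 under U6. That call was lost under the deposited values (limma, adjusted p = 0.059), and over its alternatives the adjusted p of limma ranged from 0.0131 to 0.192.

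miR-130a, the member known for vessel growth, had levels of -3.74 and -3.89 in the neonates and -4.79 and -5.14 in the adults, room air first. The 2 neonatal libraries were closer than the technical SD. The nearest neonatal and adult libraries were 0.89 log2 apart, against a technical SD of 0.84 for that pair. Its age difference was -1.05 in room air and -1.24 in hyperoxia. The fitted age effect was -1.14 ± 0.30 (SE; limma, adjusted p = 0.0674), with a 95% interval from -2.07 to -0.21 before adjustment, and missed the threshold. It turned to 1.67 with U6 and to 0.26 with card medians as the reference.

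**Figure D1:**
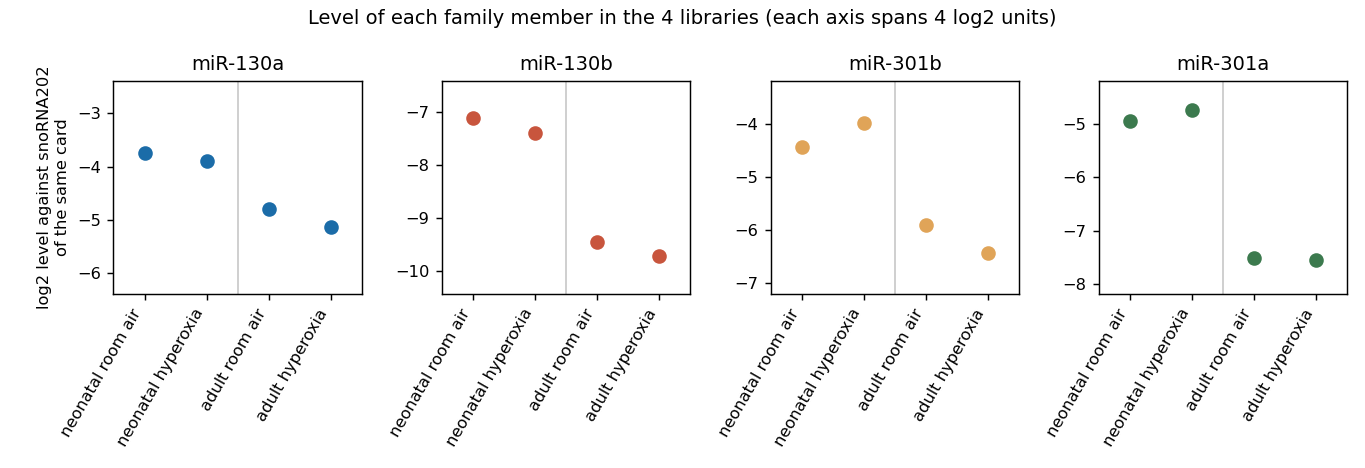
Log2 level against snoRNA202 of the same card for each member (vertical axes, each spanning 4 log2 units) in the 4 libraries (horizontal axes, 1 point per library, no error bars as each group has 1 library). Both adult points lie below both neonatal points in every panel, with the widest step for miR-301a (-7.52 and -7.55 against -4.94 and -4.73), although all 4 age effects lie above 0 when U6 is the reference.

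Counted over the family on the snoRNA202 scale, 4 of 4 members were 2-fold lower or more in adult than in neonatal room air, where 43% of 435 assays were. In hyperoxia it was also 4 of 4, against 49.3% of 450 assays. The family median was -1.89 log2 in room air, beside -0.57 over all assays and -0.39 over those of the first card. In hyperoxia it was -2.38, beside -0.98 over all assays and -0.95 over those of the first card. In the limma fit 3 of 4 members fell with age and 0 rose, where 30% of all assays fitted fell and 5.63% rose (128 and 24 assays). With U6 that split was 71 and 196, and with card medians 84 and 136. As low as miR-301a or lower were 87 of 435 assays in room air, and as low as miR-130a or lower were 186.

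The reference RNA sets how far these age values can be read. U6 itself was at -2.65 log2 against snoRNA202 on the first card in adult against neonatal room air and at -1.12 on the second. The corresponding hyperoxia values were -2.98 and -0.66. snoRNA135 was at -0.85 and -0.35 in room air, and Y1 at 1.35 and 2.15. Under 6 normalizations the fitted age effect ran from -2.70 to 0.11 for miR-301a, -2.33 to 0.48 for miR-130b, -1.95 to 0.86 for miR-301b and -1.14 to 1.67 for miR-130a. The median of all assays moved over the same settings from -0.88 to 1.19. Set against that median, miR-301a was lower by 1.08 to 2.16, miR-130b by 0.71 to 1.79 and miR-301b by 0.33 to 1.41, while miR-130a ran from -0.60 to 0.48.

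**Figure D2:**
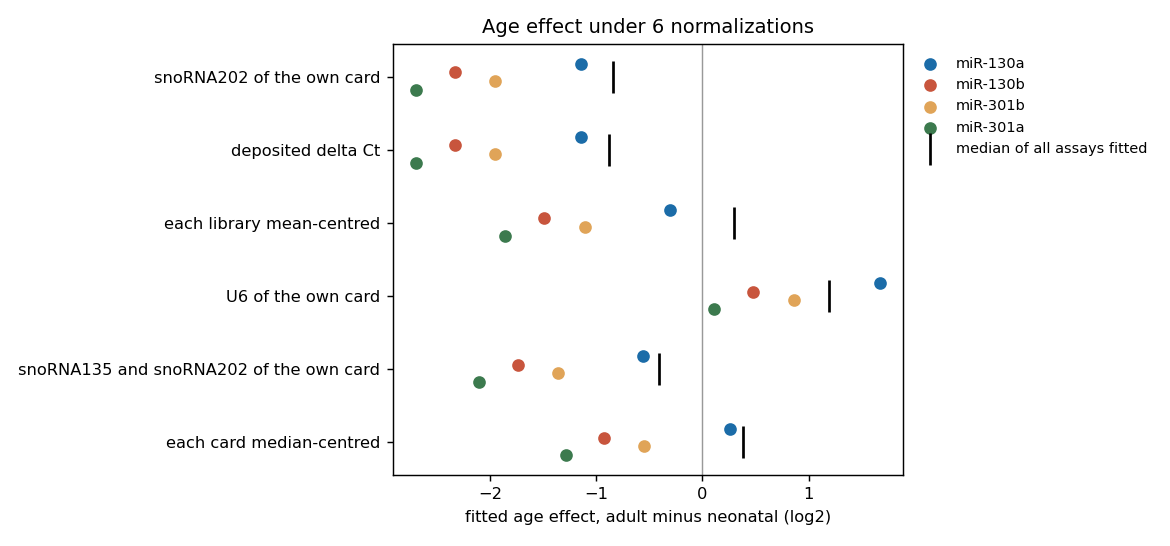
Fitted age effect, adult minus neonatal, in log2 (horizontal axis) for the 4 members (coloured points) under 6 normalizations (vertical axis), with the median of all assays fitted as a black bar. The order of the members is fixed because all share a card, miR-301a lies left of the median in every row, and all 4 points lie right of 0 with U6 (0.11 to 1.67).

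Members on one card can be set against each other without any reference RNA, because it cancels in the difference of their changes. These contrasts are therefore the same under any of the 6 normalizations, by construction. The yardstick for them was the root mean square gap between the 2 cards in the change of the 4 control RNAs, 0.92 log2 for age in room air and 1.34 in hyperoxia. It also holds the error of snoRNA202 on both cards, which cancels in the contrasts. U6 weighs most in it, at -2.65 and -1.12 on the 2 cards in room air and -2.98 and -0.66 in hyperoxia. The yardstick may thus be too wide, and a contrast within it is not shown to be absent.

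Of the members, miR-130a of chromosome 2 and miR-301a of chromosome 11 separated most. The assays read mature miRNAs and not the output of a locus. Whether an assay also reads another member was not tested. The age change of miR-130a minus that of miR-301a was 1.53 in room air (-1.05 against -2.58) and 1.58 in hyperoxia (-1.24 against -2.82), which is 2.89-fold and 2.98-fold, and both exceeded the gap. The 2 values come from separate pairs of libraries. In an added model over the 235 first-card assays with miR-130a as the reference, miR-301a fell relative to it, with an effect of -1.55 ± 0.25 (SE; limma, adjusted p = 0.0185). With the roles exchanged, the adjusted p of limma was 0.0124. Relative to miR-130a, 19.6% of the first-card assays fell, and relative to miR-301a, 68.9% rose.

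Between miR-130a and miR-130b, which differ at 2 bases in their mature form, the contrast was 1.28 in room air and 1.09 in hyperoxia. The second lies within the gap. miR-130b fell relative to miR-130a, with an effect of -1.18 ± 0.25 (SE; limma, adjusted p = 0.0312, or 0.0335 with the roles exchanged). Relative to miR-130b, 58.7% of the first-card assays rose. Against miR-301b, the neighbour of miR-130b, miR-130a was apart by 0.42 in room air and 1.19 in hyperoxia, both within the gap. The fitted value of -0.81 for miR-301b relative to miR-130a missed the threshold (limma, adjusted p = 0.124), with a 95% interval from -1.78 to 0.17.

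Within the chromosome 16 pair, the age change of miR-130b minus that of miR-301b was -0.86 in room air and 0.10 in hyperoxia, both within the gap. With miR-301b as the reference, miR-130b was fitted at -0.38 (95% interval -2.03 to 1.27; limma, adjusted p = 0.717, or 0.438 with the roles exchanged). miR-301a and miR-130b were apart by -0.25 and -0.49, with a fitted -0.37 for miR-301a relative to miR-130b (95% interval -1.30 to 0.57; limma, adjusted p = 0.368, or 0.191 with the roles exchanged). miR-301a and miR-301b were apart by -1.11 in room air, beyond the gap, and by -0.39 in hyperoxia. With miR-301b as the reference, miR-301a was fitted at -0.75 (95% interval -2.40 to 0.90; SE 0.84; limma, adjusted p = 0.472). With the roles exchanged, miR-301b was at 0.75 relative to miR-301a (95% interval -0.29 to 1.79; SE 0.29; limma, adjusted p = 0.114). Each of the 3 intervals reaches past -1 log2, so equal age changes of these 3 members were not shown.

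**Figure D3:**
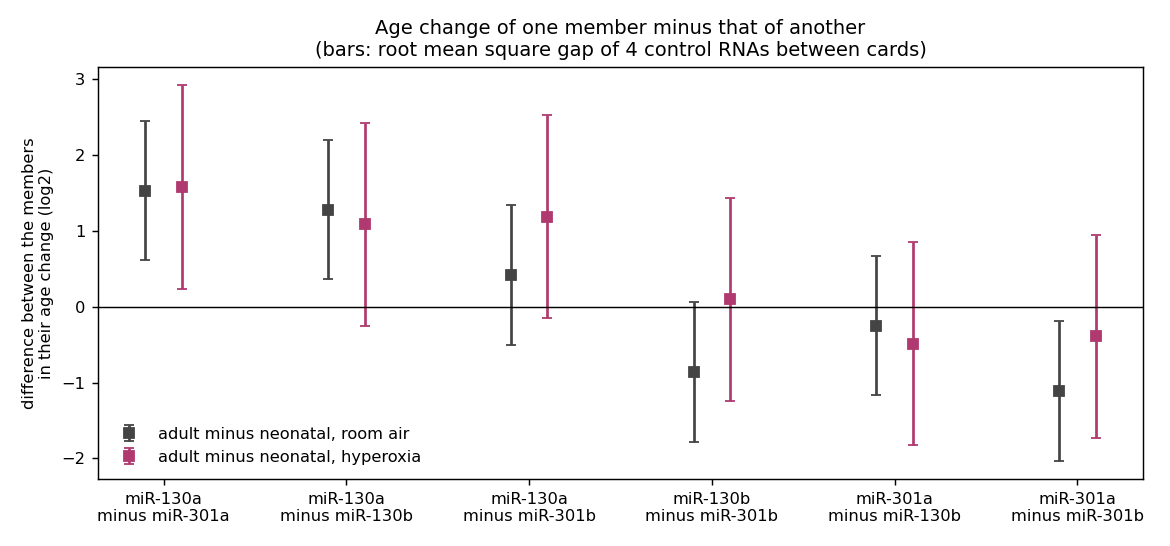
Age change of one member minus that of another in log2 (vertical axis) for the 6 member pairs (horizontal axis), in room air (grey) and hyperoxia (magenta), with bars for the root mean square gap of 4 control RNAs between cards. miR-130a minus miR-301a lies at 1.53 and 1.58 and clears its bars in both atmospheres, while miR-130b minus miR-301b lies at -0.86 and 0.10.

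After 72 h of oxygen no member differed by 2-fold at either age. In neonates miR-130a was at -0.15 log2 in hyperoxia minus room air, miR-130b at -0.26, miR-301a at 0.21 and miR-301b at 0.45. Over all assays 22.2% of 469 were at least 2-fold apart in that comparison. The family median of 0.03 stood beside 0.13 over all assays and 0.24 over those of the first card. In adults the values were -0.35 for miR-130a, -0.27 for miR-130b, -0.03 for miR-301a and -0.52 for miR-301b, and with each library mean-centred all 4 turned above 0 (0.32, 0.39, 0.64 and 0.15). With card medians miR-130b was at 0.05, and miR-301a was above 0 with U6 (0.22). The share of all assays was 12.1% of 448 there. The family median was -0.31, beside -0.24 over all assays and -0.29 over those of the first card.

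In the additive model 0 of 4 members were called for oxygen, as were 0% of all assays fitted. At an unadjusted p under 0.05 limma passed 13 assays, and none of them was a member. The fitted oxygen effect of miR-130a was -0.25 (95% interval -1.18 to 0.68), of miR-130b -0.27 (-1.18 to 0.64), of miR-301a 0.09 (-0.85 to 1.03) and of miR-301b -0.03 (-1.28 to 1.21). A 2-fold change lies inside each interval, so these data do not show that oxygen left the family as it was.

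Between the 2 neighbours on chromosome 16, the oxygen change of miR-130b minus that of miR-301b was -0.72 in neonates, a ratio of 1.64-fold, against a gap of 0.36 between cards. That gap holds no spread between animals, so these oxygen contrasts have no replicate check. The fitted oxygen contrast of miR-301b relative to miR-130b was 0.24 (95% interval -0.89 to 1.36; limma, adjusted p = 0.935). In adult hyperoxia the same contrast was 0.24, within its gap of 0.47. miR-130a minus miR-301b was -0.61 in neonates and 0.17 in adults. miR-301a minus miR-130b was 0.48 in neonates, beyond the gap, and 0.25 in adults. miR-130a minus miR-301a was -0.37 in neonates, just beyond the gap, and -0.32 in adults. miR-301a minus miR-301b was -0.24 in neonates and 0.49 in adults, the one adult contrast of the 6 beyond its gap.

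**Figure D4:**
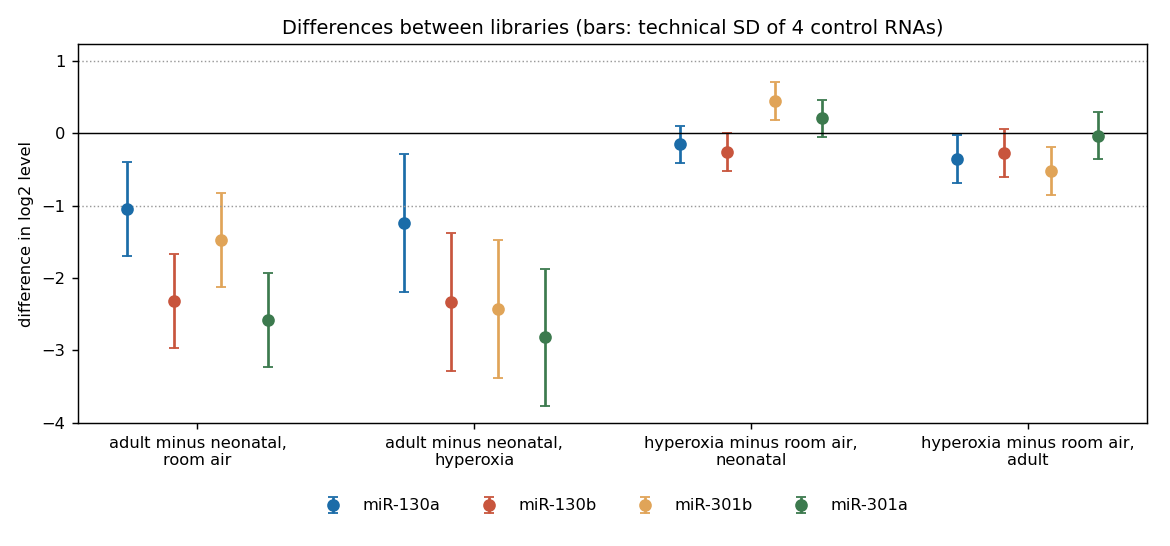
Difference in log2 level between 2 libraries (vertical axis) for 4 comparisons (horizontal axis) and 4 members (colours), with bars for the technical SD of 4 control RNAs and dotted lines at 2-fold. The age differences lie between -1.05 and -2.82 on this snoRNA202 scale and turn above 0 with U6, while the oxygen differences lie between -0.52 and 0.45.

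One passenger strand of the family was on the cards, miR-130b*, the 5′ arm of the miR-130b hairpin. It is shown because it leaves the same hairpin as miR-130b with another seed, in capitals.
miR-130b*: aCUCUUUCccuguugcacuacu
It sat on the second card, at -8.89 and -9.07 log2 in the neonates and at -13.18 and -12.87 in the adults. The adult libraries were low by 19.5-fold in room air (-4.29 log2) and 13.9-fold in hyperoxia (-3.79). miR-130b* fell with age, with an effect of -4.04 ± 0.33 (SE; limma, adjusted p = 0.00862), and the fit lay between -4.15 and -2.61 under the 6 normalizations and was called lower in all of them. The age change of the passenger minus that of the guide was -1.96 in room air and -1.46 in hyperoxia. It stayed below 0 under the 6 normalizations, from -3.49 to -0.93 and from -3.78 to -1.31. The strands were read on different cards from separate primer sets, so the reference does not cancel here, and this difference was not tested. miR-721, which shares the seed, was not detected in any library, with Ct of 37.33 to 40.

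The 3 miRNAs reported downstream of the family were lower in adults on the snoRNA202 scale. Whether the family acts on them here, and in which direction, was not tested. miR-503 was at -6.37 and -6.62 in the neonatal libraries and -11.52 and -11.84 in the adult libraries. miR-204, a miRNA that restrains vessel smooth muscle growth, was at -6.90 and -6.85, then -9.91 and -10.23. miR-322, the mouse form of miR-424, was at -3.79 and -4.01, then -5.96 and -6.43. All 3 of 3 fell with age in limma, where 30% of all assays fell, with effects of -5.18 for miR-503 (adjusted p = 0.00725), -3.19 for miR-204 (adjusted p = 0.0117) and -2.29 for miR-322 (adjusted p = 0.0206). With U6 miR-503 was at -2.37 and miR-204 at -0.38, while miR-322 turned to 0.52. None was 2-fold apart after oxygen at either age.

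Of 8 miRNAs of vessel cells 1 fell with age and 0 rose in limma on the snoRNA202 scale, where 30% of all assays fell and 5.63% rose. Other normalizations gave more higher calls, also over all 426 assays fitted. There 196 were called higher with U6, 136 with card medians, 99 with mean centring and 50 with both snoRNAs. Over the 6, miR-145 and miR-126-5p were called higher in 4, miR-222 in 3, miR-143 and miR-221 in 2, and miR-126 and miR-139-5p in 1. The one that fell was miR-218, a miRNA encoded in the Slit genes, with an effect of -1.85 ± 0.30 (SE; limma, adjusted p = 0.0305), or 0.96 under U6. The endothelial miR-126 was at 3.07, 3.54, 2.89 and 2.88 across the 4 libraries, with a fitted age effect of -0.42 (limma, adjusted p = 0.374). The smooth muscle miRNAs miR-143 and miR-145 had fitted age effects of 0.34 and 1.18 that missed the threshold (limma, adjusted p = 0.439 and 0.0731). The list median was 0.30, beside -2.14 for the family and -0.84 for all assays. Since these also sit on the first card, the members were set against them without a reference RNA. miR-301a minus miR-126 was -2.39 for age in room air and -2.16 in hyperoxia. miR-130b minus miR-126 was -2.14 and -1.68, miR-301b minus miR-126 was -1.28 and -1.78, and miR-130a minus miR-126 was -0.86 and -0.59. With miR-301a as the reference of the model, miR-126 rose relative to it by 2.28 ± 0.20 (SE; limma, adjusted p = 0.00955). So did 68.9% of the first-card assays. With miR-130a as the reference, miR-126 was at 0.72 ± 0.26 (SE; limma, adjusted p = 0.0937). miR-143 and miR-145 rose relative to miR-130a, with effects of 1.48 and 2.32 (limma, adjusted p = 0.0199 and 0.0109), where 33.6% of the first-card assays rose. miR-130a minus miR-145 was -2.46 for age in room air and -2.18 in hyperoxia.

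**Figure D5:**
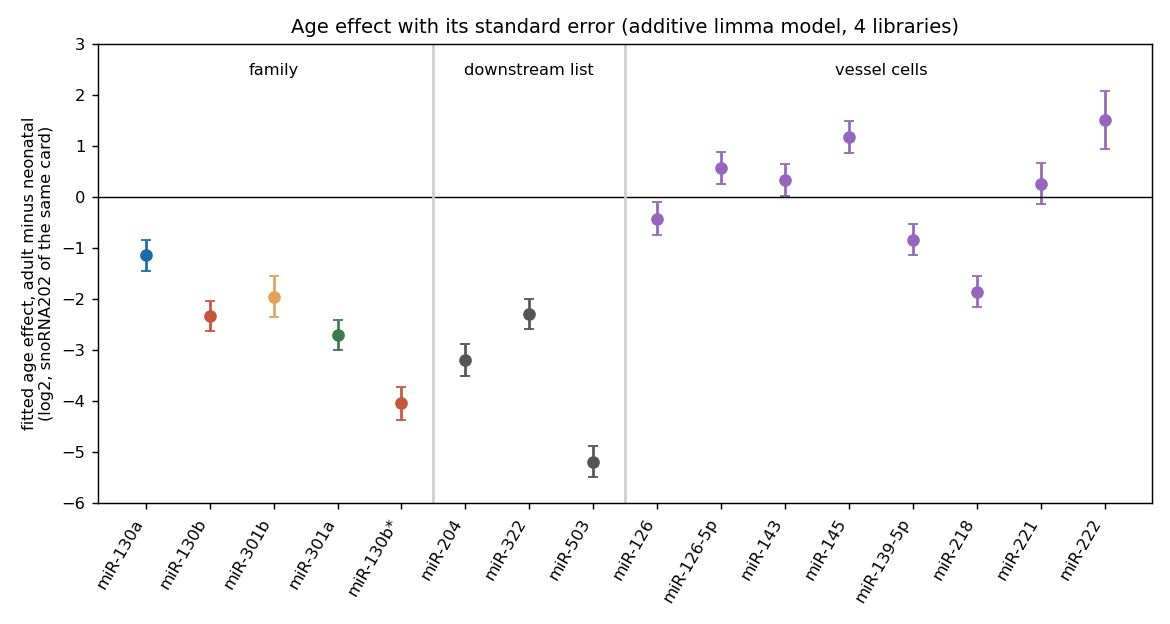
Fitted age effect, adult minus neonatal, with its standard error in log2 against snoRNA202 (vertical axis) for the family with miR-130b*, the downstream list and the vessel list (horizontal axis). The 4 members and the 3 downstream miRNAs lie between -1.14 and -5.18, the vessel miRNAs between -1.85 and 1.51, and with U6 all but miR-130b*, miR-204 and miR-503 lie above 0.

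Markers of other cells moved with age in part. The mesenchyme list, miR-199a-3p, miR-199a-5p and miR-214, had a summed level of -2.20 and -1.98 in the neonatal libraries and -3.40 and -3.82 in the adult ones, with 2 of 3 fallen in limma, where 30% of all assays fell and 5.63% rose, and with U6 1 of 3 below 0. Its part in the family's age difference was not tested. Such sums mostly follow the assays of highest level and can hide the others. The endothelial sum was 3.21 and 3.66 in neonates and 3.15 and 3.13 in adults. Its 2 markers had fitted age effects of opposite sign, -0.42 for miR-126 and 0.57 for miR-126-5p, neither called. The epithelial sum was -0.66 and 0.22, then -0.19 and -1.03, and 0 of 5 epithelial markers were called on this scale, though each was called higher in 1 or 2 of the 6 normalizations. Leukocyte markers summed to -0.56 and -0.19, then 0.11 and -0.25, with 0 of 4 called on this scale. Adult minus neonatal room air was 1.08 for miR-142-3p, 1.18 for miR-142-5p, 0.87 for miR-150 and -0.03 for miR-223. Higher calls came in 4 of the 6 normalizations for miR-142-3p, in 4 for miR-142-5p, in 3 for miR-150 and in 2 for miR-223. Erythroid markers had 0 of 3 called on the snoRNA202 scale, with miR-451 called higher in 2 of the 6 normalizations and miR-486 in 1. Of the cardiac and skeletal muscle markers 1 of 5 was called, miR-206, which was lower under all 6. The other 4 were called higher in 1 normalization. Over all 426 assays fitted, higher calls ran from 19 with the deposited values to 196 with U6, so such calls were common.

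Distances between patterns were taken with each assay centred on its own mean over the 4 libraries. From miR-130b, miR-301a lay at a root mean square of 0.27 log2 and the chromosome 16 neighbour miR-301b at 0.33. These values lie closer together than the smallest technical SD, 0.26, so they do not rank miR-301a and miR-301b. miR-130a and miR-301a were farthest apart, at 0.80. Among 343 other mouse-named assays with Ct of 32 or below, miR-130a lay closest to miR-92a (0.08), miR-15b* (0.10) and miR-467a (0.10). miR-130b lay closest to miR-322 (0.07), miR-494 (0.08) and miR-106b* (0.09). Nearest to miR-301a were miR-210 (0.06), miR-193 (0.14) and miR-494 (0.20), and nearest to miR-301b were miR-188-5p (0.10), miR-1982.1 (0.10) and miR-320 (0.13). Of these, miR-15b*, miR-106b* and miR-1982.1 sit on the second card, so their distances also depend on the snoRNA202 of each card. With 4 libraries that differ mainly by age, many assays have such a pattern.

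miR-19a and miR-19b have the seed GUGCAAA, which overlaps that of the family by the letters GUGCAA. Their fitted age effects were -0.93 and -0.15 and missed the threshold (limma, adjusted p = 0.136 and 0.807). Over the 6 normalizations miR-19a was called higher in 1 and miR-19b in 2. Of all 426 assays fitted, 196 were called higher with U6 and 136 with card medians. In adult hyperoxia minus room air they were at -0.61 and -0.94.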

How the data were processed

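Lung RNA of 4 libraries, 1 per group by sample title, was read by quantitative PCR after reverse transcription with Megaplex primer sets A and B and preamplification, per the labels' protocols. The authors deposited Ct values and Ct minus that of snoRNA202, both on a log2 scale, per the file headers. An uncrossed well holds 40. For software, thresholds and baselines nothing is given in the sources used here. PCR gives no read depth, so Ct stands in for it.

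The deposited adult room air values use the first card's snoRNA202 for all 384 wells of the second card, and the second card's for 1 first-card well, miR-322 (tolerance 0.0015 cycles). Levels here were therefore recomputed as minus Ct plus the Ct of snoRNA202 of the own card. Assays with Ct of 35 or below in the libraries compared were used, and 1 log2 unit was counted as a difference.

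Assays detected in every library entered an additive fit of age and oxygen (limma 3.58.1 under R 4.3.3, functions lmFit and eBayes). This main fit has 1 residual and 2.16 prior degrees of freedom, with Benjamini-Hochberg adjustment over all assays and a threshold of 0.05. The model takes the oxygen effect as equal in neonates and adults, so its 1 residual is the departure from that. Its errors leave out the reference RNA. Models with a member as reference and a fit without row L of the first card, where no member lies, were added after seeing the data. With miR-130a, miR-130b and miR-301a as reference the prior degrees of freedom were 2.31, 3.14 and 1.52, and with miR-301b infinite. In these models every assay shares the error of the reference well, which their adjusted p-values do not take into account.

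Members and lists were chosen with earlier results of these data known. Named are the 4 members, other assays of their names or seed, the 3 nearest patterns per member, and the members of the lists (downstream miRNAs, vessel cells, overlapping motif and cell type markers). Alternatives were the reference, the Ct limit, the size counted and the model.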

Additional observations from a re-analysis of the deposited data

Results flagged for a closer look

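miR-301b went opposite ways after oxygen at the 2 ages, at 0.45 log2 in neonates and -0.52 in adults, each beyond the technical SD of 0.26 and 0.33. The difference between ages was not tested, since 4 libraries leave no residual for an interaction. The adult value was -0.27 with U6, -0.26 with both snoRNAs and -0.19 with card centring, all within the technical SD. With each library mean-centred it was 0.15 and no longer opposite.

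miR-301a also had opposite signs, at 0.21 in neonates and -0.03 in adults, both within the technical SD, and the difference was not tested. The adult value lay above 0 with U6 (0.22), both snoRNAs (0.23), card centring (0.29) and mean centring (0.64), so the signs were opposite only with snoRNA202 as the reference.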

How the results depend on the processing

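The locus contrasts cannot change with the normalization, since all 4 members share a card. The model contrasts between members kept their call whichever member was the reference. Exchanging the roles only turns the sign of the estimate, so this agreement is largely fixed by construction. Only the error pooled over all assays and the adjustment differ. Age values of single members moved with the reference. Fitted age effects for miR-130a, miR-130b, miR-301a and miR-301b were 1.67, 0.48, 0.11 and 0.86 with U6, where miR-130a was called higher. miR-130a was at 0.26 with each card median-centred. With the same value of -1.14 it was called lower with Ct of 32 or below, with an intensity trend and with age alone (limma, adjusted p = 0.0484, 0.0247 and 0.0324). miR-130b missed the threshold with mean centring (-1.49) and card centring (-0.93). miR-301b missed it with the deposited values (-1.95), mean centring (-1.11), both snoRNAs, snoRNA135 and snoRNA202, (-1.36), card centring (-0.55) and Ct below 40 (-1.95). miR-301a kept its call under all alternatives but U6. Called members, 3 lower in the report, were 1 lower with mean centring, 1 lower with card centring, and 0 lower and 1 higher with U6. Among all assays limma called 24 higher and 128 lower in adults. The counts were 196 and 71 under U6, 99 and 77 under mean centring, 136 and 84 under card centring, and 50 and 112 with both snoRNAs.

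For single pairs, adult minus neonatal room air was 1.60, 0.32, 0.07 and 1.18 with U6 for miR-130a, miR-130b, miR-301a and miR-301b, and miR-130a was at 0.10 with card centring. In hyperoxia the U6 values were 1.73, 0.64, 0.16 and 0.54, and miR-130a was at 0.01 with mean centring and 0.42 with card centring. In room air, members at least 2-fold lower numbered 0 with U6 (2 higher), 2 with card centring and 2 at a size of 1.5 log2. In hyperoxia they numbered 0 with U6 (1 higher) and 1 with card centring. At a size of 0.5 log2, 1 member was lower in adults after oxygen. The fitted oxygen effect of miR-301b was 0.22 with mean centring, 0.03 with card centring, 0.05 against U6 and 0.06 against both snoRNAs. Apart from the alternatives that change the reference, the cause of these shifts was not tested.

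No paired analysis was possible because the labels give no replicate numbers and each group has 1 library. Only control RNAs were read repeatedly, and the members' own assay error was not measured.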

Other observations

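miR-122, a liver miRNA used here as a marker of tissue that lung should lack, was not detected in the neonatal room air library. Its level was -14.07 log2 in neonates after hyperoxia. In adults it was -19.38 without and -15.44 with hyperoxia, a difference of 3.95.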
